A study of Mus musculus with 14 samples.

Results

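The dermal fibroblast identity genes described here are 9 genes known from the fibroblasts of mouse skin: Twist1, Twist2, Zic1, Crabp1, En1, Prrx1, Dpt, Dpp4 and Prdm1. They were taken by symbol from the table of raw read counts after its Ensembl identifiers had been matched to GENCODE M21, and all 9 were found among its 48795 gene rows. All 9 also passed the filter on low counts that left 16408 genes for testing. No measured value was used to choose them by the rule itself, although earlier results of these data were known when the set was drawn up.

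The study asked how loss of Rel, the gene for the NF-kappaB subunit c-Rel, alters fibroblasts of lung and skin. RNA was sequenced from cells that had crawled out of pieces of lung or of dorsal skin and were scraped from plastic after 14 days without stimulation. The mice are described as male, 8 to 10 weeks old, either C57BL/6J or Rel -/-, and the Rel -/- libraries carry the C57BL/6J strain label as well. The cultures gave 5 libraries of wild-type lung (numbered 1, 23, 3, 4 and 5), 4 of Rel-null lung (7 to 10), 2 of wild-type skin (11 and 22) and 3 of Rel-null skin (18 to 20). Skin pieces were taken off the dish partway through culture, whereas for lung no such step is described. The cells were not sorted, and the deletion is in the whole animal. Nothing in the labels ties a library to an animal or a separate culture, so every p-value measures the spread between these libraries.

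Dermal fibroblasts of the mouse back descend largely from the dermomyotome of the somites, and positional transcription factors laid down in the embryo stay expressed in adult and cultured skin fibroblasts. Twist1 and Twist2 are basic helix-loop-helix factors that bind E-box DNA with partner proteins, Zic1 is a zinc-finger factor of dorsal mesoderm and neural tissue, En1 and Prrx1 are homeobox factors, and Prdm1 encodes the repressor Blimp1. Crabp1 encodes a cytosolic carrier of retinoic acid, Dpt the extracellular matrix protein dermatopontin, and Dpp4 the cell-surface peptidase CD26. In mouse skin, En1 history and Dpp4 mark scar-forming fibroblasts of the back, and Prdm1 and Crabp1 are used as markers of upper dermal lineages.

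The promoter windows of 5 members are printed because they belong to the genes that set the contrast below: Zic1, En1, Twist2 and Crabp1, which were high in skin cultures, and Dpt, which was abundant in both tissues. Each runs from 250 bases before to 50 bases after the RefSeq transcription start on GRCm38.p6, 5′ to 3′ on the strand of the gene. Capitals mark E-boxes, spelled CANNTG, a motif that reads the same on both strands.
Zic1, chr9:91365719-91366018, minus strand: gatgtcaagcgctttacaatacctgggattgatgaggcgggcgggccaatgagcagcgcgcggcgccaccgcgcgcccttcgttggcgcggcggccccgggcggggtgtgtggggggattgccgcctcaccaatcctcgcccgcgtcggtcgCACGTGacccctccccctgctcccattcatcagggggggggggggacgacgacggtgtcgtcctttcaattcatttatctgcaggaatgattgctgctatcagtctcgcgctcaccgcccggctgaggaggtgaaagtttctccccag
En1, chr1:120602237-120602536, plus strand: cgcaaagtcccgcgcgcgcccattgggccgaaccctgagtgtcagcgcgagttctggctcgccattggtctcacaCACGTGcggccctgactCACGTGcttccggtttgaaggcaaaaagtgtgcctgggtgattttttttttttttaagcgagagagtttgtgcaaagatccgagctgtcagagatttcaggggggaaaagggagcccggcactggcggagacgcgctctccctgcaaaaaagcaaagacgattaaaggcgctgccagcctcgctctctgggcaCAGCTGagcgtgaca
Twist2, chr1:91801211-91801510, plus strand: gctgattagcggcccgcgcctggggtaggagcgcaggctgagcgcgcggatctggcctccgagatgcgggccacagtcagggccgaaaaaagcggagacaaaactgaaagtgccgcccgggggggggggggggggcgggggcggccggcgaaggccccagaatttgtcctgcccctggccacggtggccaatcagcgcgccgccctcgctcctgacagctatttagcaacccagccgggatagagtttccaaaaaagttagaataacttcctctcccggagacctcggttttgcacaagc
Crabp1, chr9:54764498-54764797, plus strand: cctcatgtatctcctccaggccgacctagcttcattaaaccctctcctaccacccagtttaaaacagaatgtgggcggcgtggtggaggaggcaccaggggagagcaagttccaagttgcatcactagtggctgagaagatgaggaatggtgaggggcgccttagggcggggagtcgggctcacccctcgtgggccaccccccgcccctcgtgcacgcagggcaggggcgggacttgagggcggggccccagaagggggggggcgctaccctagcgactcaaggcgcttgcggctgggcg
Dpt, chr1:164796413-164796712, plus strand: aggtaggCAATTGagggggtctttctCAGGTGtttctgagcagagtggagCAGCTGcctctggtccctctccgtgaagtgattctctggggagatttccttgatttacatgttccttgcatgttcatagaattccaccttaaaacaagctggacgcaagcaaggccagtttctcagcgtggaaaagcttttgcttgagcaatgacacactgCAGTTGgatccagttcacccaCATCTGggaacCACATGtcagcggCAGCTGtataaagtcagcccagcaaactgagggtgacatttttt

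All 9 members had a window in the RefSeq table. An E-box lay in the windows of 5 of 9 members, against 72.3% of the 32851 windows in the table. The Zic1 window held 1 E-box, CACGTG, which begins at position -98 counted from the start, and the En1 window held the same hexamer at -175 and at -158. The Dpt window held 7 E-boxes and those of Twist2 and Crabp1 held 0. The form CATNTG, searched on both strands and a subset of the E-boxes, was in the windows of 2 of 9 members (39.4% of all windows). The GC box GGGCGG, on either strand, was in 4 of 9 (35.7% of all windows), with 5 matches for Crabp1, 4 for Twist2, 3 for Zic1 and 1 for Twist1. TATAAA, on either strand, was in 3 of 9 (13.6% of all windows). The kappaB consensus was in 0 of 9 (8.46% of all windows). These matches describe letters in a window and not sites in use.

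Some facts about the libraries touch the values that follow. Wild-type skin 22 was shallow, with 2663437 counts in all and a level of 1.13 CPM (counts scaled to the library total) for 3 counts, whereas the other 13 libraries held between 12780350 and 30987933. The 4 libraries Rel-null lung 7, wild-type skin 11, wild-type lung 4 and Rel-null skin 18, had between 3.37% and 11.5% of otherwise expressed genes at 0 counts, against at most 0.728% in the other 10, and they held 12 of the 22 member values at 0. Rel itself lay between 1.10 and 17.3 CPM in wild-type lung and between 0.0651 and 4.06 in Rel-null lung. These ranges overlapped, as wild-type lung 4, at 1.10 CPM, was below Rel-null lung 8, 9 and 10, at 4.06, 1.39 and 3.80. In wild-type skin Rel was 11.5 and 10.9 CPM. It was 0.0349, 9.42 and 9.47 CPM in the libraries labelled Rel-null skin 18, 19 and 20. Numbers 19 and 20 thus go against their label, with the limit that the labels do not name the deleted exons. Wild-type lung 1 and wild-type skin 22 held Xist, at 64.5 and 732 CPM, which goes against a male source. Rel-null lung 10 has a treatment label naming skin but a title and source naming lung. It was kept with lung by its title and not by the level of any member. Its Zic1 was 0 and its Twist2 3.22 CPM, both within the range of the other lung libraries. The lung mesenchyme gene Tbx4, outside the set, was 112 CPM there and at most 3.36 CPM in skin.

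Zic1, Twist2, Crabp1 and En1 separated skin from lung cultures in every library, and Prrx1 did so by a smaller factor. Twist1 was higher in most skin libraries but overlapped lung, and Dpt, Dpp4 and Prdm1 did not separate the tissues. Skin was set against lung within each genotype and as the average over genotypes, with edgeR's quasi-likelihood test and Benjamini-Hochberg adjustment over all 16408 genes at a threshold of 0.05. In wild type 3 of 9 members were called higher in skin, where 0.902% of all tested genes were called higher and 2.97% were called in either direction. Without wild-type skin 11 that count was 1. In libraries labelled Rel-null 4 of 9 were called higher, against 1.82% of all genes higher and 5.05% in either direction. Averaged over genotypes 5 of 9 were called higher, against 4.26% higher and 10.4% in either direction. No member was called lower in skin in these 3 comparisons, against 2.07%, 3.23% and 6.17% of all genes, but the members were picked as skin genes with earlier results known, so the counts describe the set and do not test it.

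**Figure D1:**
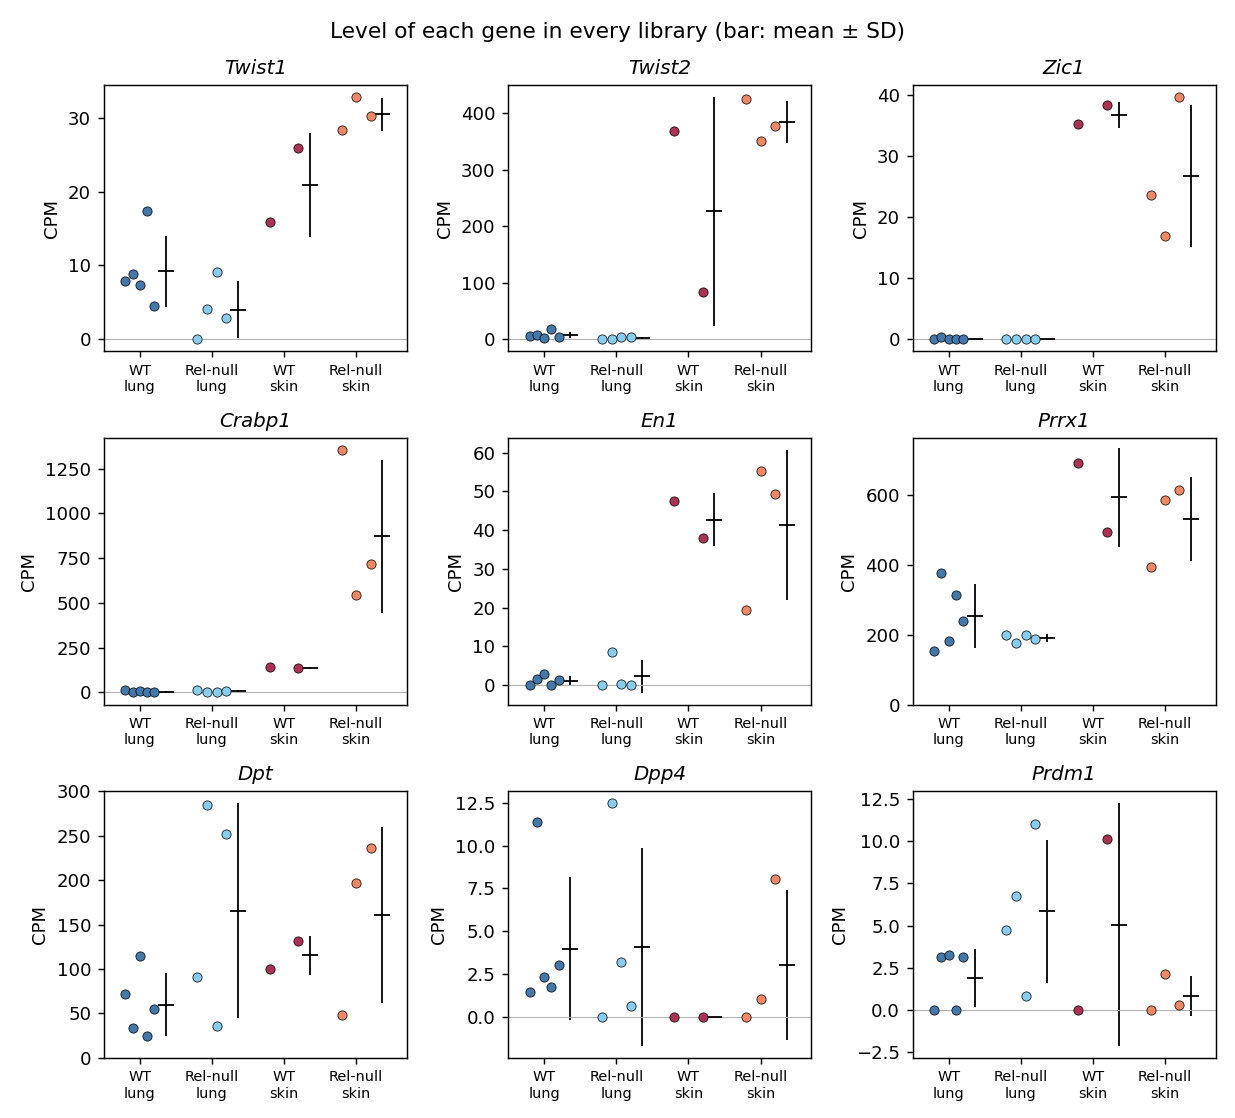
CPM of the 9 genes in all 14 libraries, 1 panel per gene with its own linear axis; points are libraries, bars the group mean and whiskers the standard deviation. Zic1, Twist2, Crabp1, En1 and Prrx1 have every skin point above every lung point, whereas Dpt, Dpp4 and Prdm1 have overlapping points.

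Zic1 (ENSMUSG00000032368, GRCm38 chr9:91358058-91365810, minus strand) was the closest to an on or off difference. It had 0 counts in wild-type lung 1, 3, 4 and 5 and in all 4 Rel-null lung libraries, and 5 counts (0.265 CPM, 95% Poisson interval 0.0859 to 0.617) in wild-type lung 23. In skin it stood at 35.3 and 38.3 CPM in wild type and at 23.6, 16.9 and 39.7 CPM in libraries labelled Rel-null. The groups were far apart: the lowest skin library had 265 counts and the highest lung library 5. In wild type the log2 difference was 9.27 ± 1.46 (SE; adjusted p = 0.00344, edgeR). In libraries labelled Rel-null it was at least 699-fold higher in skin, counted against 3 reads over the whole lung group (adjusted p = 0.00198, edgeR). Zic4, its divergent neighbour on the opposite strand, overlaps its exons and was between 0 and 4.38 CPM in every library; the strand setting of the counting is not given in the sources used here, so reads of the overlap cannot be told apart.

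Twist2 (ENSMUSG00000007805, chr1:91801461-91848028, plus strand) had 5.60, 7.83, 2.74, 17.4 and 4.08 CPM in wild-type lung 1, 23, 3, 4 and 5, and 0.0651, 0, 4.12 and 3.22 CPM in Rel-null lung 7, 8, 9 and 10. In skin it reached 369 and 83.0 CPM in wild type and 425, 351 and 376 CPM in libraries labelled Rel-null. Every skin library was above every lung library, and wild-type skin 22, the shallow library, was the lowest of the 5. The log2 difference between skin and lung was 4.83 ± 0.99 in wild type (adjusted p = 0.0122, edgeR), 7.54 ± 1.18 in libraries labelled Rel-null (adjusted p = 0.00104) and 6.18 ± 0.77 on average (adjusted p = 6.94e-05). The wild-type call rested on skin 11: without it the difference was 3.18 with an adjusted p of 0.261 (edgeR). The antisense gene Gm29100 shares exon sequence with Twist2 and had 27.1 CPM in wild-type skin 11 and 12.9 CPM in Rel-null lung 7, where Twist2 had 1 count.

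Its paralog Twist1 (ENSMUSG00000035799, chr12:33957671-33959829, plus strand) was also lower in most lung libraries. Lung values were 7.88, 8.78, 7.29, 17.4 and 4.56 CPM in wild type and 0, 4.06, 9.16 and 2.93 CPM in Rel-null libraries, and skin values were 15.9 and 25.9 CPM in wild type and 28.4, 32.8 and 30.2 CPM in libraries labelled Rel-null. Wild-type lung 4 lay above wild-type skin 11, so the wild-type groups overlapped, whereas the Rel-null groups did not. The log2 difference was 0.99 ± 1.06 in wild type (adjusted p = 0.802, edgeR), 2.76 ± 1.03 in Rel-null (adjusted p = 0.150) and 1.88 ± 0.72 on average (adjusted p = 0.121). Without Rel-null lung 7, in which more expressed genes were at 0 than in any other library, the Rel-null and averaged differences were 2.38 and 1.68 with adjusted p-values of 0.0263 and 0.0132 (edgeR). With all libraries kept, the adjusted p-values were 0.0264 and 0.0334 with DESeq2 and 0.00136 and 0.00651 with limma-voom and sample quality weights. Most alternatives left Twist1 uncalled, in 21 of 25 fits for Rel-null and 20 of 24 for the average.

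The balance between the Twist paralogs differed between the tissues in every library that allowed a ratio. Twist2 over Twist1, both as counts per kilobase of exon, was between 0 and 0.563 in 8 lung libraries (median 0.411) and between 1.64 and 11.9 in 5 skin libraries (median 6.39). Twist1 therefore had the higher level per length in each of those lung libraries and Twist2 in each skin library. Rel-null lung 7 gave no ratio, since Twist1 was 0 there. This ratio was not tested.

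**Figure D2:**
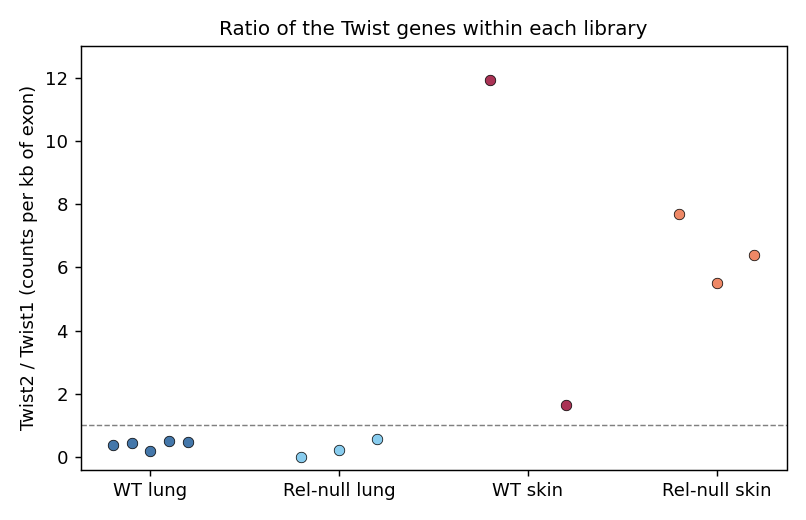
Ratio of Twist2 to Twist1 counts per kilobase of exon in each library, on a linear axis; points are libraries by group and the dashed line marks equal levels. Lung points lie between 0 and 0.563, below the line, and skin points between 1.64 and 11.9, above it; Rel-null lung 7 is left out because Twist1 had 0 counts.

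Crabp1 (ENSMUSG00000032291, chr9:54764748-54773110, plus strand) had 13.4, 1.11, 5.10, 0 and 2.42 CPM in wild-type lung 1, 23, 3, 4 and 5 and 15.6, 3.08, 4.08 and 5.00 CPM in Rel-null lung 7 to 10. It had 140 and 134 CPM in wild-type skin and 1353, 544 and 717 CPM in libraries labelled Rel-null skin 18, 19 and 20. All skin libraries were above all lung libraries, and within skin the groups did not overlap either. Skin exceeded lung by 4.65 ± 1.02 on the log2 scale in wild type (adjusted p = 0.0188, edgeR), by 6.92 ± 1.17 in Rel-null (adjusted p = 0.00191) and by 5.79 ± 0.77 on average (adjusted p = 1.32e-04). The wild-type call was lost, with adjusted p-values of 0.0519 and 0.0525 (edgeR), without lung 3 or lung 5. It was also lost with the 2 wild-type groups fitted alone (0.0944) and with the keratinocyte score described below (0.0612), both by edgeR. Without skin 11, which leaves 1 wild-type skin library, the log2 difference was 4.51 and the call was not kept either.

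En1 (ENSMUSG00000058665, chr1:120602418-120607992, plus strand) had 0, 1.59, 2.81, 0 and 1.23 CPM in wild-type lung 1, 23, 3, 4 and 5 and 0, 8.50, 0.434 and 0.192 CPM in Rel-null lung 7 to 10. Skin libraries held 47.5 and 37.9 CPM in wild type and 19.3, 55.3 and 49.4 CPM in libraries labelled Rel-null. The lowest skin library was above the highest lung library, Rel-null lung 8. The log2 difference was 4.53 ± 1.18 on average (adjusted p = 0.0208, edgeR), and 5.06 ± 1.64 in wild type and 4.00 ± 1.65 in Rel-null missed the threshold (adjusted p = 0.134 and 0.195). The averaged call was lost without wild-type skin 11 (adjusted p = 0.0520, edgeR) and without the libraries labelled Rel-null skin 19 and 20 (adjusted p = 0.128). Without Rel-null lung 8 the Rel-null difference was 7.44 (adjusted p = 0.0351, edgeR). The wild-type difference passed without a low-count filter (adjusted p = 0.0188, edgeR), with DESeq2 (0.0331) and with limma-voom and sample quality weights (0.0247), and the Rel-null difference passed with the last of these (0.00328).

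Prrx1 (ENSMUSG00000026586, chr1:163245119-163313710, minus strand), a general mesenchymal gene, was abundant throughout. It had 155, 377, 183, 315 and 239 CPM in wild-type lung 1, 23, 3, 4 and 5, and 177 to 200 CPM in the 4 Rel-null lung libraries (median 194). Skin held 694 and 494 CPM in wild type and 394, 588 and 615 CPM in libraries labelled Rel-null, with no overlap with lung. The log2 difference was 1.08 ± 0.30 in wild type (adjusted p = 0.0667, edgeR), 1.36 ± 0.28 in Rel-null (adjusted p = 0.00912) and 1.22 ± 0.20 on average (adjusted p = 9.57e-04). The wild-type value was near the threshold and passed it with other scaling factors (adjusted p = 0.0470 with RLE factors and 0.0411 with upper-quartile factors) and without lung 23 (0.0343), all by edgeR. It stayed uncalled in 18 of 25 alternative fits. With 1 library left out the wild-type log2 difference ran from 0.67 to 1.39. The Rel-null call was lost without the library labelled Rel-null skin 20 (adjusted p = 0.0540, edgeR) and without 19 and 20 together (0.295).

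**Figure D3:**
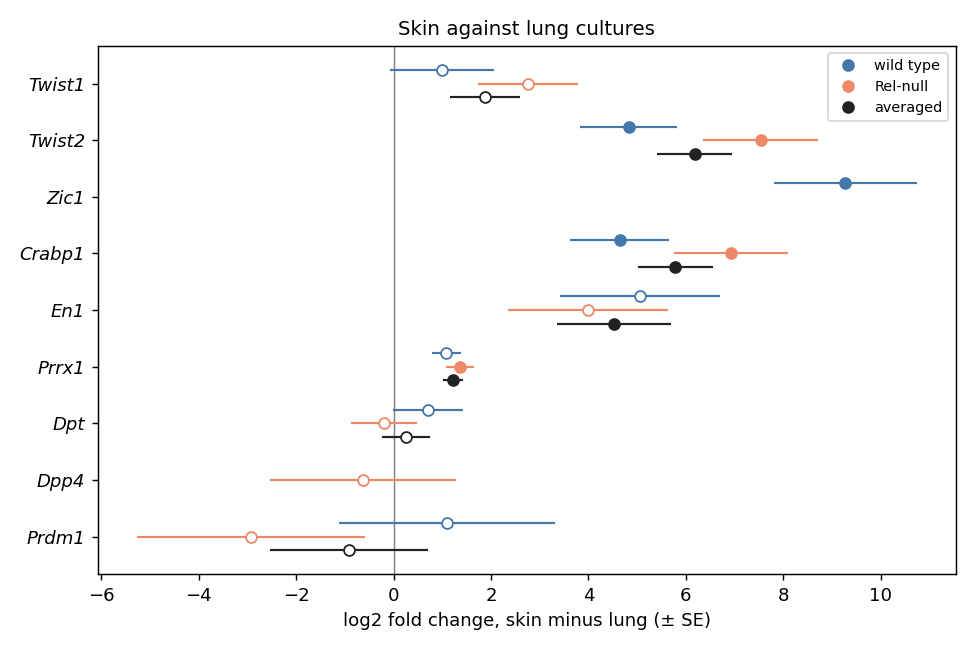
Log2 difference of skin minus lung for each gene in wild type, in Rel-null and averaged over genotypes, with SE as whiskers. The SE was derived from the F statistic. Filled points have an adjusted p under 0.05 (edgeR). Twist2 and Crabp1 are filled in all 3 comparisons and Zic1 in the one drawn, whereas Dpt lies near 0; comparisons in which a group had 0 counts in every library are left out (Zic1 in Rel-null and averaged, Dpp4 in wild type and averaged).

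The matrix gene Dpt (ENSMUSG00000026574, chr1:164796644-164824266, plus strand) did not separate the tissues. Lung values were 71.9, 33.6, 114, 24.2 and 54.6 CPM in wild type and 90.5, 285, 35.9 and 252 CPM in Rel-null. Skin values were 99.9 and 131 CPM in wild type and 48.4, 197 and 236 CPM in libraries labelled Rel-null. Groups overlapped, with the highest library of all in Rel-null lung. The log2 difference was 0.70 ± 0.72 in wild type, -0.20 ± 0.68 in Rel-null and 0.25 ± 0.50 on average, with edgeR adjusted p-values of 0.790, 0.946 and 0.866.

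Dpp4 (ENSMUSG00000035000, chr2:62330073-62412231, minus strand) was low in both tissues. It had 1.41, 11.4, 2.29, 1.72 and 3.04 CPM in wild-type lung and 0, 12.5, 3.17 and 0.62 CPM in Rel-null lung. In skin it had 0 counts in both wild-type libraries, where 3 counts would be 0.129 CPM in skin 11 and 1.13 CPM in skin 22, and 0, 1.02 and 8.06 CPM in libraries labelled Rel-null 18, 19 and 20. Wild-type lung and skin did not overlap, with lung the higher. Skin was at least 30.8-fold lower than lung in wild type, counted against 3 reads over the skin group. The test did not pass (adjusted p = 0.296 with edgeR and 0.0271 with DESeq2). That bound covers counting error alone and rested mostly on skin 11, in which 8.22% of otherwise expressed genes were at 0. The floor of skin 22 was not far below the lung values. The Rel-null difference was -0.63 ± 1.90 (adjusted p = 0.935, edgeR), and the averaged adjusted p was 0.171 (0.0439 with DESeq2). The antisense gene Gm13561, which overlaps Dpp4 exons, had 0 counts in all 14 libraries.

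Prdm1 (ENSMUSG00000038151, chr10:44437177-44528501, minus strand) was low and uneven. Its values were 0, 3.12, 3.26, 0 and 3.13 CPM in wild-type lung 1, 23, 3, 4 and 5 and 4.75, 6.75, 0.868 and 11.0 CPM in Rel-null lung. Skin values were 0 and 10.1 CPM in wild type and 0, 2.16 and 0.313 CPM in libraries labelled Rel-null, and the 10.1 CPM of skin 22 rested on 27 counts (95% Poisson interval 6.68 to 14.7). All groups overlapped. The log2 difference was 1.10 ± 2.22 in wild type, -2.93 ± 2.34 in Rel-null and -0.91 ± 1.62 on average, with edgeR adjusted p-values of 0.926, 0.588 and 0.843, and in wild type it turned negative without skin 22.

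Counted by libraries alone, every skin library was above every lung library for 5 of 9 members, against 2.47% of all tested genes. Within wild type the groups did not overlap for 5 members with skin higher and 1 with skin lower, against 10.8% and 8.19% of all genes. In Rel-null they did not overlap for 6 members with skin higher, against 13.3%. The median log2 difference of the 9 members was 1.10 in wild type and 2.76 in Rel-null, and that of all genes was -0.13 and -0.01.

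Ranked by level per length, as CPM per kilobase of exon, the members took a different order in each tissue. Wild-type lung was led by Dpt (34.6 ± 20.7, SD, n = 5) and Prrx1 (22.9 ± 8.33), whose libraries overlapped, and Twist1 followed at 5.64 ± 2.98 with no overlap with Prrx1. Crabp1, Twist2, Dpp4, En1, Prdm1 and Zic1 came next, each overlapping the one before it. Rel-null lung began with Dpt (96.2 ± 70.4, n = 4) and then Prrx1 (17.3 ± 0.982), which did not overlap, and then came Crabp1, Twist1, Prdm1, En1, Dpp4, Twist2 and Zic1, each overlapping the one before it. Wild-type skin was led by Crabp1 (171 ± 5.07, n = 2), above Twist2 (71.2 ± 63.7) without overlap, and Twist2, Dpt (67.0 ± 12.8) and Prrx1 (53.7 ± 12.7) overlapped in turn. En1 (16.3 ± 2.58) and Twist1 (12.8 ± 4.35) formed the next pair, then Zic1 (6.46 ± 0.373), Prdm1 and Dpp4. Rel-null skin kept Crabp1 first (1087 ± 531, n = 3), then Twist2 (121 ± 11.8), Dpt (93.2 ± 57.5), Prrx1 (48.1 ± 10.9), Twist1 (18.7 ± 1.36), En1 (15.7 ± 7.35), Zic1 (4.69 ± 2.06), Dpp4 and Prdm1. In it Crabp1 and Twist2, Prrx1 and Twist1, En1 and Zic1, and Zic1 and Dpp4 were the neighbours whose libraries did not overlap.

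Markers of some other cell types moved with the tissue, and their part in the differences was not tested. Not all did. Summed adipocyte markers lay between 93.4 and 2317 CPM in skin and between 225 and 1307 CPM in lung. Those of pericytes and smooth muscle lay between 42.3 and 430 CPM in skin and between 44.3 and 1015 CPM in lung. The 15 leukocyte and macrophage markers summed to between 4940 and 27694 CPM in lung and between 54.8 and 177 CPM in skin, and all 15 were called lower in skin on average (edgeR). The 10 skeletal muscle markers summed to between 87.6 and 1383 CPM in skin and between 14.3 and 919 CPM in lung, where Myod1, Myf5, Pax7, Myh4 and Ckm were at 0. The 16 keratinocyte markers summed to 37.9 and 90.9 CPM in wild-type skin, to between 1405 and 3382 CPM in libraries labelled Rel-null skin and to between 20.4 and 51.1 CPM in lung, where Krt5 was at 0. The 8 Schwann cell and melanocyte markers summed to between 17.5 and 272 CPM in skin and at most 7.16 CPM in lung. The 14 pan-fibroblast genes summed to between 13425 and 56441 CPM in skin and between 27357 and 147547 CPM in lung. In bulk cultures fewer cells of a type and less RNA per cell cannot be told apart. With a keratinocyte score as a covariate, which ran from -0.74 to -0.16 in lung, was -0.21 and 0.02 in wild-type skin and ran from 1.28 to 1.42 in Rel-null skin, 1 member was called in wild type and 0 in Rel-null or on average (edgeR). Errors widened in that fit: in Rel-null the log2 difference was 7.74 ± 4.29 for Twist2, 9.09 ± 5.33 for Crabp1 and 1.65 ± 1.22 for Prrx1, whereas that of Zic1 was 0.71 ± 4.62. Averaged over genotypes, En1 was at 2.58 ± 8.80 with the score and at 4.53 ± 1.18 without it. Rel-null skin stands apart from every other library in this score. The Rel-null and averaged comparisons therefore could not separate the score from the group.

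Genes around these members were counted from lists drawn up with earlier results of these data known, on the averaged contrast of skin minus lung (edgeR, adjusted p under 0.05), where 4.26% of all tested genes rose, 6.17% fell and the median log2 difference was -0.07. Among 14 tested transcription factors of the dermal lineage 2 rose and 2 fell, with a median of 0.93. Tbx15, a T-box factor of dorsal dermis, was between 43.0 and 148 CPM in skin and between 0 and 6.03 CPM in lung (log2 difference 5.38 ± 1.06, adjusted p = 0.00351). Zic4 was called higher as well, although wild-type skin 11 and Rel-null skin 18 had 0 counts of it. Wild-type skin 22 had 9 counts, and the libraries labelled Rel-null skin 19 and 20 had 8 and 56. Since Zic4 exons overlap those of Zic1, reads of the overlap cannot be told apart. Osr1, a zinc-finger factor of embryonic mesenchyme, was between 0 and 4.88 CPM in skin and between 22.1 and 80.5 CPM in lung (-4.44 ± 0.82, adjusted p = 0.00217), and Trps1 also fell (-1.50 ± 0.39). Of 12 papillary dermis genes 2 rose, Lrig1 (2.47 ± 0.30) and the glycoprotein gene Pdpn (1.69 ± 0.27), and Rspo1 fell, with a list median of 1.03. Of 12 reticular and hypodermal genes 1 rose, Ly6a (1.25 ± 0.31), and 3 fell, with a median of -0.06. Those 3 were the transglutaminase Tgm2 (-6.34 ± 0.45), the calcification inhibitor Mgp (-7.82 ± 1.08) and the fatty acid transporter Cd36 (-2.91 ± 0.66). Of 12 tested genes of universal and fascia fibroblasts 2 rose, Procr (2.63 ± 0.37) and Col15a1 (2.59 ± 0.48), and Sema3c fell (-2.06 ± 0.42), with a list median of -0.16.

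Among 16 partners, inhibitors and targets of Twist proteins 5 rose and 0 fell, against the same 4.26% and 6.17% of all genes. Snai2, the repressor Slug, was between 38.3 and 95.7 CPM in skin and between 1.49 and 15.9 CPM in lung (log2 difference 2.99 ± 0.43, adjusted p = 2.51e-04, edgeR). Id4 and Id1, helix-loop-helix proteins that lack a DNA-binding region and sequester partners, rose by 2.38 ± 0.36 and 2.07 ± 0.53, and the cadherins Cdh11 and Cdh2 rose by 1.36 ± 0.28 and 1.16 ± 0.28. The median of this list was -0.01 and that of all genes -0.07. Of 15 tested retinoid genes, the setting of Crabp1, 2 rose and 5 fell, with a median of -0.68. Aldh1a3, an enzyme that makes retinoic acid, and Cyp26b1, one that degrades it, rose by 3.31 ± 0.72 and 2.14 ± 0.40. Aldh1a2, the main retinoic acid synthase of embryonic mesoderm, was at most 2.58 CPM in skin and between 60.7 and 194 CPM in lung (-7.03 ± 0.68), and Aldh1a1 (-2.68 ± 0.45), Dhrs3 (-2.74 ± 0.49) and Lrat were among the others that fell. Of 6 tested relatives of Dpp4 1 rose, the cytosolic peptidase Prep (0.82 ± 0.18, adjusted p = 0.00663, edgeR), and Dpp9 was at 0.63 ± 0.23 without passing (adjusted p = 0.102); the list median was 0.02.

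The counterpart list of 14 tested lung mesenchyme genes had 0 higher and 5 lower in skin, against 4.26% and 6.17% of all genes, with a median of -1.64. Tbx4, a T-box factor of lung and hindlimb mesenchyme, was at most 3.36 CPM in skin and between 10.0 and 112 CPM in lung (-6.34 ± 1.12, adjusted p = 0.00152, edgeR), and Foxf1 fell by 2.52 on the log2 scale. Tcf21, a helix-loop-helix factor of visceral mesenchyme, was at most 0.0430 CPM in skin and between 2.73 and 30.8 CPM in lung, and Tbx2 and Tbx5 completed the 5. Rel-null lung 10, the library with the skin treatment label, held the 112 CPM of Tbx4. Of 14 pan-fibroblast genes 3 rose in skin and 2 fell, with a median of -0.33. The surface marker gene Thy1 (2.39 ± 0.29), Col6a1 (1.39 ± 0.37) and S100a4 (1.97 ± 0.60) rose, and the collagen gene Col3a1 (-4.04 ± 0.77) and Fbln1 (-3.06 ± 0.72) fell.

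The mean profile of the 9 members, each as log2 CPM standardised over the 14 libraries, lay between -0.92 and -0.04 in lung and between 0.28 and 1.00 in skin. Nearest to it by mean absolute difference over the 14 libraries were Tbc1d2b (0.346), Serpine2 (0.357) and Cemip2 (0.367), all on the standardised scale and with no test.

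Genotype was the comparison the study was built for, and the identity genes showed no called change with it. In lung 0 of 9 members and 0% of all tested genes were called between libraries labelled Rel-null and wild type (edgeR), and 2 members (Twist2 and Dpt) and 1036 genes (6.31%) had an unadjusted p under 0.05. The groups overlapped for all 9 members in lung, against 2.29% of genes without overlap. Twist2, given library by library above, was on average 1.85 ± 2.13 CPM in Rel-null (SD, n = 4) and 7.54 ± 5.85 CPM in wild-type lung (n = 5), a log2 difference of -1.97 ± 0.90 (adjusted p = 0.781, edgeR). Dpt was 166 ± 121 CPM in Rel-null and 59.7 ± 35.7 CPM in wild-type lung, a log2 difference of 1.42 ± 0.60 (adjusted p = 0.781, edgeR). The remaining fitted differences ran from -1.15 ± 0.91 for Twist1 to 1.61 ± 1.84 for Prdm1, with Prrx1 at -0.41 ± 0.25. No fold is given for Zic1, whose lung counts were at or near 0.

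**Figure D4:**
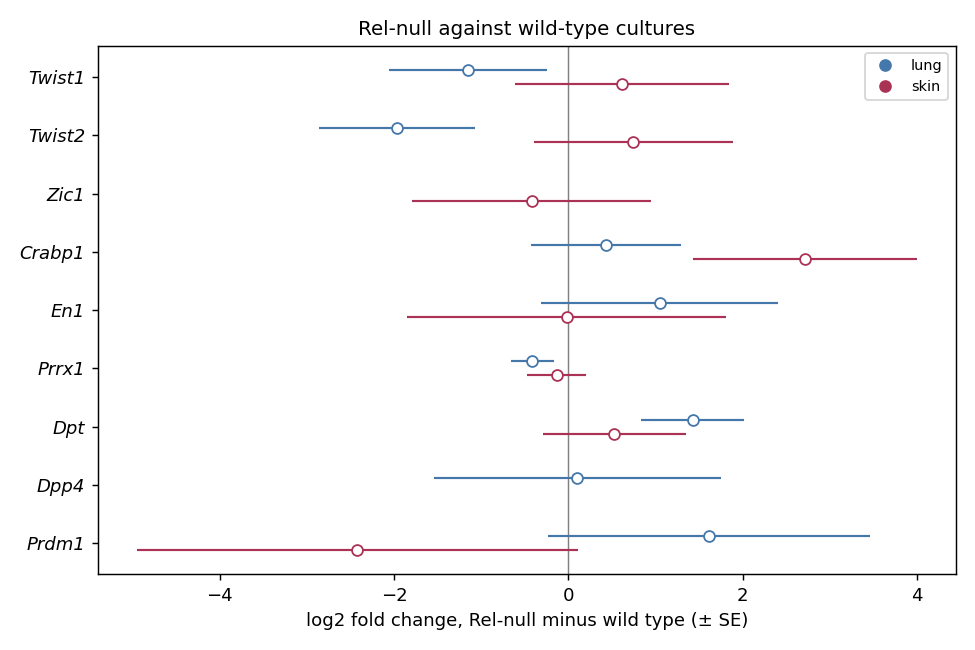
Log2 difference of Rel-null minus wild type for each gene in lung and in skin, with the SE derived from the F statistic as whiskers. Open points have an adjusted p of 0.05 or more (edgeR). All points are open; Twist2 in lung is at -1.97 and Crabp1 in skin at 2.71, and entries with a group at 0 in every library are left out (Zic1 in lung, Dpp4 in skin).

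In skin 0 of 9 members and 0% of all tested genes were called (edgeR), and 1 member (Dpp4) and 1024 genes (6.24%) had an unadjusted p under 0.05. The libraries did not overlap for Crabp1 and Twist1, both higher in libraries labelled Rel-null, against 13.7% of all genes higher without overlap in this comparison of 3 with 2. Crabp1 averaged 872 ± 426 CPM in Rel-null (n = 3) and 137 ± 4.07 CPM in wild-type skin (n = 2), a log2 difference of 2.71 ± 1.28 (adjusted p = 0.784, edgeR). The libraries labelled Rel-null skin 19 and 20, in which Rel was near its wild-type level, also had high Crabp1. Without them the difference was 3.35, which rested on 1 Rel-null skin library, number 18. The summed keratinocyte markers, at least 1405 CPM in Rel-null and at most 90.9 CPM in wild-type skin, moved with Crabp1 and cannot be told apart from the label. Twist1 averaged 30.5 ± 2.22 and 20.9 ± 7.09 CPM (0.62 ± 1.22) and Twist2 384 ± 37.4 and 226 ± 202 CPM (0.74 ± 1.14). The Twist2 difference was 2.41 without wild-type skin 11 and 0.00035 without wild-type skin 22. En1 (-0.02 ± 1.83), Prrx1 (-0.13 ± 0.34), Zic1 (-0.42 ± 1.37) and Dpt (0.53 ± 0.82) had differences smaller than their errors. Dpp4, with 0 counts in both wild-type skin libraries, was at least 18.0-fold higher in libraries labelled Rel-null (adjusted p = 0.784, edgeR). That bound rested on numbers 19 and 20 because number 18 was also at 0. On the wild-type side it rested mostly on skin 11, in which 8.22% of otherwise expressed genes were at 0. In skin 22 a level of 3 counts is 1.13 CPM.

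The difference between the genotype effects in skin and in lung was called for 0 of 9 members and 0% of all genes (edgeR; 766 genes, 4.67%, and 0 members at an unadjusted p under 0.05). The lowest unadjusted p among members were 0.0526 for Dpp4 and 0.0855 for Twist2 (adjusted p = 0.9999 for both, edgeR). With DESeq2 51 genes were called in lung, 153 in skin and 100 for the difference, and with limma-voom and sample quality weights 6, 300 and 174, and no member was among them. None of the neighbouring gene lists had a called gene in these 3 comparisons with edgeR.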

How the data were processed

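RNA from explant cultures was sequenced as 14 directional libraries, per the labels. The authors deposited raw read counts per Ensembl gene, and the submitters' processing notes list the build GRCm38 and the tools STAR 2.4.2a, Trimmomatic 0.33 and FastQC 0.11.2 without saying what each did. How reads were assigned to genes, strand included, is not given in the sources used here. Symbols, coordinates and exon lengths came from GENCODE M21, which held 48435 identifiers and lacked 360.

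Counts were tested with edgeR 4.0.16 in R 4.3.3, after filterByExpr with a minimum count of 10 and a minimum total of 15 and with TMM scaling: 4 group means in 1 quasi-likelihood fit of all libraries so that 2 wild-type skin libraries share the spread, and F tests over 16408 genes (common dispersion 0.948). The SE beside each edgeR log2 difference was derived from the test, as the absolute difference divided by the square root of its F statistic. CPM used raw totals. Alternatives used DESeq2 1.42.0, limma 3.58.1 (voom with sample quality weights), other scaling and filters, and libraries left out. Poisson intervals at 95% and floors of 3 counts cover counting error alone, as reads lacking molecular identifiers can be copies of 1 molecule. The labels give no batch. A fold against a group at 0 is a bound against 3 counts over that group.

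The members and lists were chosen with earlier results of these data known. Named list genes were the 2 with the lowest adjusted p per list on the averaged contrast; further called genes of a list were named after their values were seen, and a gene of the retinoid list is not reported here. Promoters came from RefSeq tables on GRCm38.p6.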

Additional observations from a re-analysis of the deposited data

Results flagged for a closer look

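Outlying libraries were sought in the 18 lung groups of 4 or 5 libraries, by the distance of the highest or lowest library from its neighbour. That distance was taken as a share of the whole range, and 4 groups had such a library. A chance rate of about 1 in 20 groups holds only for normally spread values. These groups hold low counts and zeros, so the 4 are listed and not weighed against that rate. Zic1 stood at 0.265 CPM in wild-type lung 23 and at 0 in the other 4 libraries of that group. A single non-zero library among zeros is flagged whatever its level. Crabp1 was 15.6 CPM in Rel-null lung 7, above the 3.08 to 5.00 CPM of the other 3. En1 was 8.50 CPM in Rel-null lung 8, where the others had at most 0.434 CPM. Dpp4 was 11.4 CPM in wild-type lung 23, above the others at 1.41 to 3.04 CPM. Skin groups were too small for this comparison.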

How the results depend on the processing

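Zic1 was called in wild type under every alternative run, and Zic1, Twist2 and Crabp1 were called on average under every one except the keratinocyte score. Members called, 3 in wild type, 4 in Rel-null and 5 on average, ranged with 1 library left out over 1 to 4, 3 to 5 and 4 to 6. They were 6 in wild type with DESeq2, and 1, 0 and 0 with the keratinocyte score, in which Rel-null skin stands apart from the other groups. In the genotype comparisons 0 members were called under every alternative.

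Over all genes, the 487 calls in wild type became 782 without a low-count filter, 1233 with DESeq2, 1044 without the Xist-positive libraries and 858 without the 4 libraries with the most genes at 0. The 829 in Rel-null became 1770 with DESeq2, 4501 with limma-voom with sample quality weights (the form used in every limma-voom fit here), 409 without Rel-null skin 19 and 20, 2171 without the 4 libraries and 0 with the keratinocyte score. The 1711 on average became 2825 with limma-voom, 1011 without 19 and 20, 2612 without the 4 libraries and 124 with the score. The 0 calls for genotype in lung became 5 without a filter, 51 with DESeq2, 6 with limma-voom, 2 with the groups compared alone, 2 without 19 and 20, and 6 without the 4 libraries. The 0 calls in skin became 3 with upper-quartile factors, 58, 153, 300, 2 and 55 under no filter, DESeq2, limma-voom, the groups alone and without 19 and 20, 439 without the Xist-positive libraries and 87 without the 4. The 0 calls for the difference of genotype effects became 31, 100, 174 and 31 under no filter, DESeq2, limma-voom and without 19 and 20, 365 without the Xist-positive libraries and 31 without the 4. With 1 library left out the counts were 258 to 1050, 410 to 1323, 1057 to 2281, 0 to 2, 0 to 421 and 0 to 370 in the same order. The wild-type tissue count was lowest without skin 11, where 1 member was called, and highest without skin 22, and it was 317 without lung 3 and 828 without Rel-null lung 7. The Rel-null count was 1323 without lung 7, 552 without lung 8 and 513, 496 and 410 without skin 18, 19 or 20, and the averaged count was 1057 without wild-type skin 11. Genotype counts above 20 in skin and for the difference, 421 and 370, came without wild-type skin 22. The causes were not tested.

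Uncalled members changed sign as follows, as log2 differences. Without the 4 libraries with the most genes at 0, Crabp1 by genotype in lung was -0.54, En1 in skin 0.69, Prrx1 in skin 0.51 and Dpt between tissues in Rel-null 0.061. En1 by genotype in skin was 0.0019 with upper-quartile factors, 0.017 without a filter and 0.11 with limma-voom. With limma-voom Prrx1 in skin was 0.035, Dpt between tissues in Rel-null 0.13, Prdm1 between tissues in wild type -4.11 and Prdm1 by genotype in skin 2.67. Without Rel-null skin 19 and 20 Dpt was -0.59 between tissues on average and -1.19 by genotype in skin. Without the Xist-positive libraries Dpp4 by genotype in lung was -0.10, and Prdm1 was -8.71 between tissues in wild type and 7.10 by genotype in skin. With the keratinocyte score Prrx1 in skin was 0.10, Dpt -1.57 between tissues on average and -1.97 by genotype in skin, and Prdm1 between tissues in wild type -0.89. Of the named genes outside the set that were called on average, Tbx15 (-2.15), Serpine2 (-1.40) and Cemip2 (-1.02) changed sign with that score.

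With 1 library left out, genotype differences in lung ranged over -0.22 to 1.58 for Crabp1, -1.59 to 0.95 for Dpp4 and -2.35 to 1.77 for En1, and in skin over -0.31 to 0.37 for En1, -4.90 to 7.08 for Prdm1 and -0.44 to 0.31 for Prrx1. Tissue differences ranged over -3.11 to 1.13 for Dpp4 and -0.52 to 0.28 for Dpt in Rel-null, and over -8.40 to 2.11 for Prdm1 in wild type. No value could be had for Zic1 in lung without wild-type lung 23 or for Dpp4 in skin without Rel-null skin 19 and 20. No paired analysis was possible because the groups share no library number. In wild-type skin 22, 3 counts stand for 1.13 CPM, so lower levels could not be detected there.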
